A study of Oryza sativa with 4 samples.

Results

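The subject is a set of 10 rice heat shock genes in young panicles: 2 heat stress transcription factors of the HsfA2 group, the disaggregase HSP101, 1 HSP90 and 6 small heat shock proteins. They were chosen by locus ID, and all 10 were found among the 55962 locus IDs of the deposited expression table. The study compared 2 samples of the mutant osrdr2-3, whose genotype is labelled DES1 mutant, with 2 samples of the control Nip, all from young panicle of japonica rice grown in soil. Only the 2 Nip libraries are described: 4 of the table's 6 library names, the control name ck3 and 3 mutant names, could not be tied to single labelled samples, and the comparison between genotypes was not analysed here. The labels name no heat treatment, no growth temperature and no panicle stage, and do not say whether the Nip samples came from separate plants. Every mean ± SD below is over n = 2 Nip libraries, whose spread may be technical, and no difference was tested. The libraries ck1 and ck2 were taken as Nip replicates 1 and 2 by the number in their names, with ck read as control. The labels do not spell this out, and 3 ck names stand against 2 Nip samples, so the match is not certain. Where a gene has a pair of values, Nip replicate 1 stands before Nip replicate 2.

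Heat shock factors are transcription factors that bind heat shock elements in promoters and switch on chaperone genes when proteins begin to unfold. In plants, class A1 factors start the response, HsfA2 factors are themselves induced by heat and prolong it, and class B factors lack the activation domain of class A. Among the targets, small heat shock proteins hold unfolding proteins in solution, HSP101 pulls proteins out of aggregates, and HSP90 helps receptors and kinases to mature. In rice as in other plants, developing reproductive organs are among the heat-sensitive tissues.

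Levels are FPKM, fragments scaled by transcript length and library size, so they can be set beside each other between genes of different length. The locus IDs carry no names in the table. Each ID was therefore paired by position with RefSeq genes of assembly ASM3414082v1, and 9 of the 10 lay on a gene with a heat shock name. The exception was LOC_Os04g01740, which is called HSP90 in the gene list. The RefSeq gene at its position had no symbol or synonym of the HSP81 form, the only form looked for in HSP90 genes. In the pair of Nip libraries, 6 of the 10 genes reached 1 FPKM in both, as did 38.2% of all 57143 rows of the table. At a minimum of 0.5 FPKM the count was 8, against 42.1% of all rows, and at 5 FPKM it was 3, against 26.8%. The median over the 10 genes was 2.05 and 2.26 FPKM. For all rows the medians were 0.0939 and 0.0910 FPKM, and 24586 rows were at 0 in both libraries.

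The 2 HsfA2 factors stood far apart. HsfA2c (LOC_Os10g28340, chromosome 10, 14745905 to 14750175) was at 7.85 and 8.30 FPKM, a mean of 8.08 ± 0.314 FPKM (SD, n = 2). This level was above that of 77.0% of all rows. HsfA2a (LOC_Os03g53340, chromosome 3, 30603963 to 30607164) was at 0.0729 and 0.0567 FPKM, the lowest of the 10 genes. HsfA2a carried the authors' status NOTEST, so its value can rest on few fragments, and no ratio to HsfA2c is given. Positions follow the deposited table, and no source used here states their genome build. RefSeq lists the HsfA2c gene of its assembly as a transcribed pseudogene and the HsfA2a gene as protein coding.

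The disaggregase HSP101 was present at a low level. HSP101 (LOC_Os05g44340, with the RefSeq synonyms CLPB1 and hsp101, chromosome 5, 25803529 to 25807160) was at 1.39 and 1.23 FPKM, a mean of 1.31 ± 0.115 FPKM (SD, n = 2). Both libraries were above 1 FPKM, and 62.5% of all rows were lower. HsfA2c was 5.63-fold and 6.73-fold above HSP101 in the 2 libraries. The listed HSP90 (LOC_Os04g01740, chromosome 4, 483240 to 486065) was at 0.204 and 0.235 FPKM, also with the status NOTEST, and thus below 1 FPKM in both libraries.

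The 6 small heat shock genes ranged from 0.753 to 14.7 FPKM by mean. Of these, 4 reached 1 FPKM in both libraries, against 38.2% of all rows. Among the 4 is LOC_Os03g16020, whose row is shared with LOC_Os03g16040. HSP16.9A (LOC_Os01g04370, chromosome 1, 1948736 to 1949587) was the most abundant of all 10 genes, at 15.4 and 14.0 FPKM. Its mean of 14.7 ± 1.03 FPKM (SD, n = 2) was above that of 83.2% of all rows. HSP17.9A (LOC_Os03g15960, chromosome 3, 8805566 to 8806601) followed at 9.44 and 10.4 FPKM, a mean of 9.93 ± 0.695 FPKM (SD, n = 2). These were the only small heat shock genes of the 10 above 5 FPKM in both libraries.

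HSP16.9B (LOC_Os01g04380, chromosome 1, 1951927 to 1952771), the neighbour of HSP16.9A, was at 2.71 and 3.30 FPKM. HSP16.9A was 5.69-fold and 4.24-fold above it in the 2 libraries, so the order of the pair was the same in both. HSP18.6 (LOC_Os02g54140, chromosome 2, 33179485 to 33180458) lay on either side of 1 FPKM, at 0.842 and 1.02 FPKM. How reads shared by similar small heat shock genes were assigned is not known, so the split between such copies is uncertain.

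The last small heat shock genes share a locus of the table on chromosome 3, from 8833631 to 8838588, which holds 3 RefSeq genes. LOC_Os03g16020, paired by order with HSP17.4, stands on 1 row together with LOC_Os03g16040, paired with HSP17.7, so their values cannot be separated. That row was at 5.77 and 4.09 FPKM, a mean of 4.93 ± 1.19 FPKM (SD, n = 2). LOC_Os03g16030, paired with HSP18.1, has its own row at 0.675 and 0.830 FPKM. The shared row was thus above the HSP18.1 row in both libraries, by 8.54-fold and 4.92-fold.

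**Figure D1:**
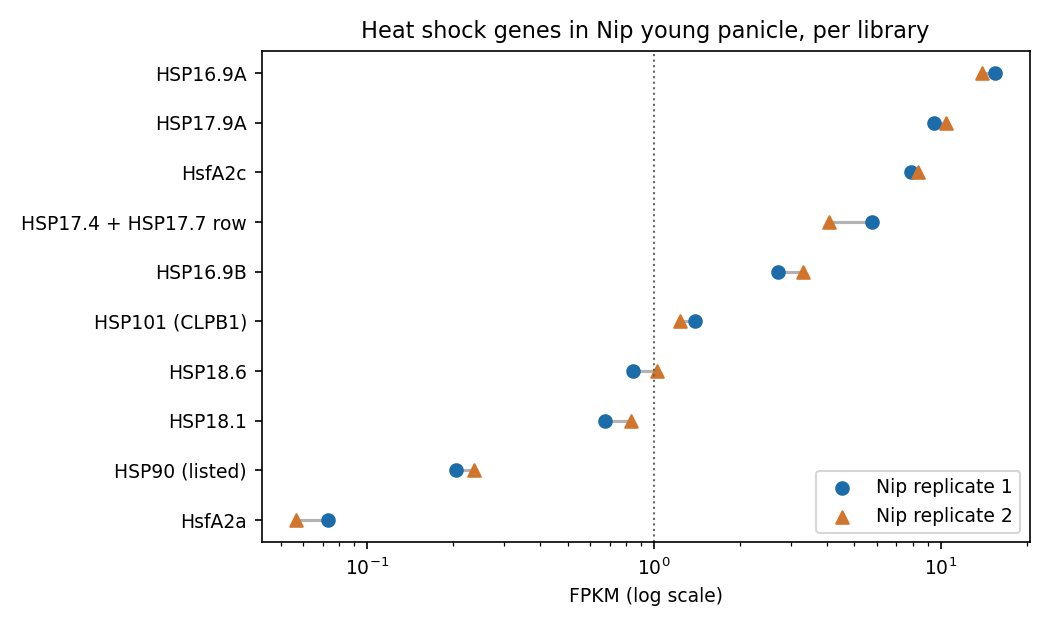
FPKM (log axis) of the 10 heat shock genes in each Nip library, ordered by mean, with circles for replicate 1, triangles for replicate 2, a line joining both values and a dotted line at 1 FPKM. The genes run from HsfA2a at 0.0567 to 0.0729 FPKM up to HSP16.9A at 14.0 to 15.4 FPKM, and only HSP18.6 has its values on both sides of the dotted line.

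From highest to lowest, the order of means was HSP16.9A, HSP17.9A, HsfA2c, the HSP17.4 and HSP17.7 row, HSP16.9B, HSP101, HSP18.6, HSP18.1, the listed HSP90 and HsfA2a. In none of the 9 steps of this order did the values of neighbouring genes overlap between the 2 libraries. The closest steps were those from HSP17.9A to HsfA2c, a ratio of means of 1.23, and from HSP18.6 to HSP18.1, a ratio of 1.24. The step of 0.181 FPKM between HSP18.6 and HSP18.1 was only slightly larger than the SD of 0.129 FPKM of HSP18.6. With 2 libraries, the absence of overlap is a description and not a test.

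The other members of each family were taken from lists of locus IDs, and 50 of 80 listed IDs were kept. Those kept had a RefSeq symbol or synonym at their position that matched a name pattern set for the list. Named below means with such a match. Some patterns were narrow, with only HSP81 names for HSP90, so an ID without a match can still have a RefSeq name. For the HSP70 list only BiP names were looked for and 1 of 13 IDs matched, so that family is not described as a whole. Its other IDs ranged from LOC_Os03g16880 at 0 and 0.0738 FPKM to LOC_Os11g47760 at 1986 and 2028 FPKM.

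Most heat shock factor rows passed 1 FPKM. Of 24 rows from 23 named factors, 18 were at or above 1 FPKM in both libraries, where 38.2% of all rows were. At 10 FPKM the count was 7, where 11676 of all 57143 rows were. Among the named factors 1 gene (HsfA6a, LOC_Os06g36930) was listed at 0 in both libraries. The listed LOC_Os08g36700, without a matching name, was at 0 in both as well. The other listed ID without a matching name, LOC_Os03g25120, shares a row with LOC_Os03g25130. That row was at 5.91 and 6.53 FPKM. The median of the 24 rows was 3.87 and 4.01 FPKM. HsfA1 (LOC_Os03g63750), of the class that starts the heat response, was the most abundant at 70.4 and 71.0 FPKM, 8.97-fold and 8.56-fold above HsfA2c. HsfB1 (LOC_Os09g28354), a class B factor, followed at 30.5 and 28.3 FPKM. The table has a second row for HsfB1 with the same ID and span, at 2.02 and 2.48 FPKM. By mean, 8 rows lay above HsfA2c, and HsfA2a was the lowest of those above 0.

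Within the HsfA2 group of 5 genes, HsfA2e (LOC_Os03g58160) was the highest at 21.9 and 22.3 FPKM. This was 2.78-fold and 2.69-fold above HsfA2c. HsfA2d (LOC_Os03g06630) was at 3.99 and 4.37 FPKM and HsfA2b (LOC_Os07g08140) at 1.68 and 2.41 FPKM. The order HsfA2e, HsfA2c, HsfA2d, HsfA2b, HsfA2a held in both libraries, and no values of neighbours overlapped. By class, 11 of 13 class A rows, 4 of 7 class B rows and 3 of 4 class C rows reached 1 FPKM in both libraries, against 38.2% of all rows. The 7 class B rows come from 6 genes, because both HsfB1 rows are counted. The class medians were 5.10 and 4.74 FPKM for A, 2.02 and 2.48 FPKM for B, and 11.3 and 10.8 FPKM for C. The class B median is the value of the second HsfB1 row in both libraries.

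HSP101 was the lowest of the 3 named ClpB rows, and the listed HSP90 was below the 2 HSP90 rows with an HSP81 name. HSP81-1 (LOC_Os08g39140), a cytosolic HSP90, was at 36.3 and 39.1 FPKM. The row LOC_Os09g30412, whose span holds the RefSeq genes HSP81-2 and HSP81-3, was at 384.7 and 438.7 FPKM. The listed HSP90 at 0.204 and 0.235 FPKM was below both rows in each library, and no ratio is given because its value can rest on few fragments. Of the other listed HSP90 IDs without an HSP81 name, the lowest by mean was LOC_Os08g38086, at 45.7 and 47.2 FPKM. The highest was the row shared by LOC_Os09g30418 and LOC_Os09g30438, at 415.4 and 435.0 FPKM. CLPB-C (LOC_Os03g31300), the chloroplast ClpB, was at 34.2 and 33.4 FPKM, 24.5-fold and 27.1-fold above HSP101. CLPB-M (LOC_Os02g08490), the mitochondrial ClpB, was at 1.72 and 1.85 FPKM, above HSP101 in both libraries. The values of CLPB-M and HSP101 did not overlap.

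Small heat shock genes covered a wide range of levels. Of 19 rows with 20 named genes, 9 were at or above 1 FPKM in both libraries, against 38.2% of all rows. At 10 FPKM the count was 2 of 19, against 11676 of all 57143 rows. Its median over named rows was 0.842 and 1.37 FPKM. HSP17.9B (LOC_Os01g04350) was the most abundant at 106.4 and 106.8 FPKM, the 1 named row above HSP16.9A. A listed row without a matching name, shared by LOC_Os02g10710 and LOC_Os02g10720, was also above HSP16.9A, at 73.2 and 74.2 FPKM. The next named row outside the 10 genes was that of HSP18.0 (LOC_Os01g08860), at 13.3 and 9.33 FPKM. HSP18.0 shares its value with another locus ID. HSP21.9 (LOC_Os11g13980) was listed at 0 in both libraries.

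**Figure D2:**
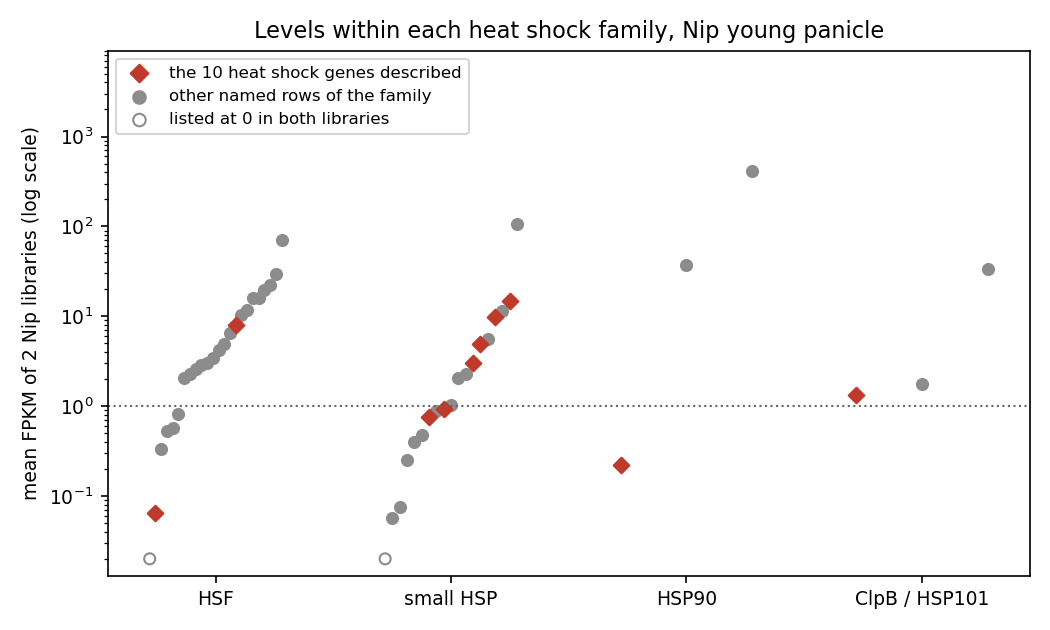
Mean FPKM of the 2 Nip libraries (log axis) for each named row and for LOC_Os04g01740, the listed HSP90 without a matching name. Rows stand by family and are ordered by level within it. Red diamonds mark the 10 heat shock genes described and grey circles the other named rows of the family. Open circles, placed at the bottom, mark rows listed at 0 in both libraries. The HSP90 and ClpB diamonds are the lowest points of their families at 0.220 and 1.31 FPKM. Among the named small heat shock rows, HSP16.9A at 14.7 FPKM is second to HSP17.9B at 106.6 FPKM.

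HSP16.9A and HSP16.9B lie in a run of 5 small heat shock genes within 18656 bp on chromosome 1, with gaps of 2292 to 5953 bp between neighbours. In chromosomal order these are HSP16.6 (LOC_Os01g04340), HSP17.9B, HSP16.9C (LOC_Os01g04360), HSP16.9A and HSP16.9B. Their levels did not change in one direction along the run. HSP16.6 was at 0.0558 and 0.0594 FPKM, and its neighbour HSP17.9B was the highest. HSP16.9C, between HSP17.9B and HSP16.9A, was at 0.716 and 0.0761 FPKM. Such low values can rest on few fragments, so no ratio between the libraries is given. HSP17.9B was 6.89-fold and 7.64-fold above HSP16.9A.

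**Figure D3:**
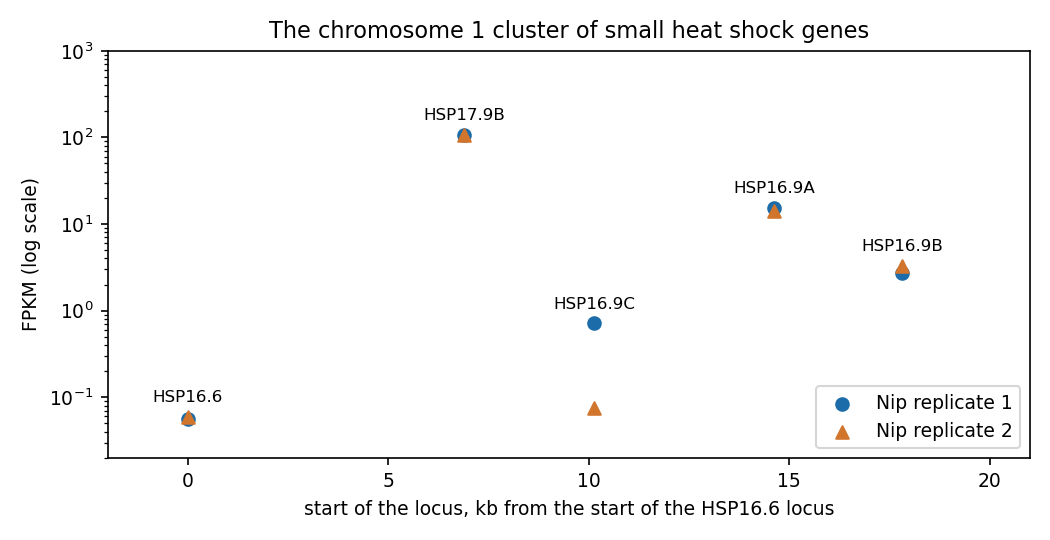
FPKM (log axis) of the 5 small heat shock genes of the chromosome 1 run against the start of each locus, in kb from the start of the HSP16.6 locus, with circles for Nip replicate 1 and triangles for Nip replicate 2. Neighbouring genes range from 0.0558 FPKM for HSP16.6 to 106.8 FPKM for HSP17.9B. The 2 values of HSP16.9C lie apart on the log axis, but both are under 1 FPKM, where few fragments can set a value.

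Loci beside the other genes covered a wide range as well. HSP101 lies 292 bp and 242 bp from its neighbouring loci, which were at 8.69 and 9.11 FPKM (LOC_Os05g44330) and at 7.81 and 7.58 FPKM (LOC_Os05g44350), both above HSP101 in each library. The loci on both sides of LOC_Os04g01740 (LOC_Os04g01730 and LOC_Os04g01750) were listed at 0 in both libraries. On the chromosome 3 locus, LOC_Os03g16010 ends 42 bp before the start of the shared small heat shock locus and was at 51.4 and 52.6 FPKM. The labels name no step that keeps the strand of the RNA, so reads of loci this close may not be separable, and their part in these values was not tested.

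The 2 libraries gave similar values for the 10 genes. Of the 10, 4 were higher in replicate 1 and 6 in replicate 2, on the log2(FPKM + 1) scale. Of all 57143 rows, 16507 were higher in replicate 1 and 16049 in replicate 2. Each gene was set beside all rows with a mean FPKM within 2-fold of its own. The difference exceeded the median of those rows for 4 genes and their 95th percentile for 0 genes. Any 10 rows would give counts near these by the definition of a median and a percentile. The counts therefore do not set the genes apart. The largest difference was 0.41 on this scale for the shared HSP17.4 and HSP17.7 row, larger than in 94.1% of 6809 rows at its level. HSP16.9B differed by -0.21, HSP16.9A by 0.13, HSP17.9A by -0.13 and HsfA2c by -0.07, where a negative value means lower in replicate 1. The added 1 compresses differences of low values, so the small differences of HsfA2a and LOC_Os04g01740 say little.

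**Figure D4:**
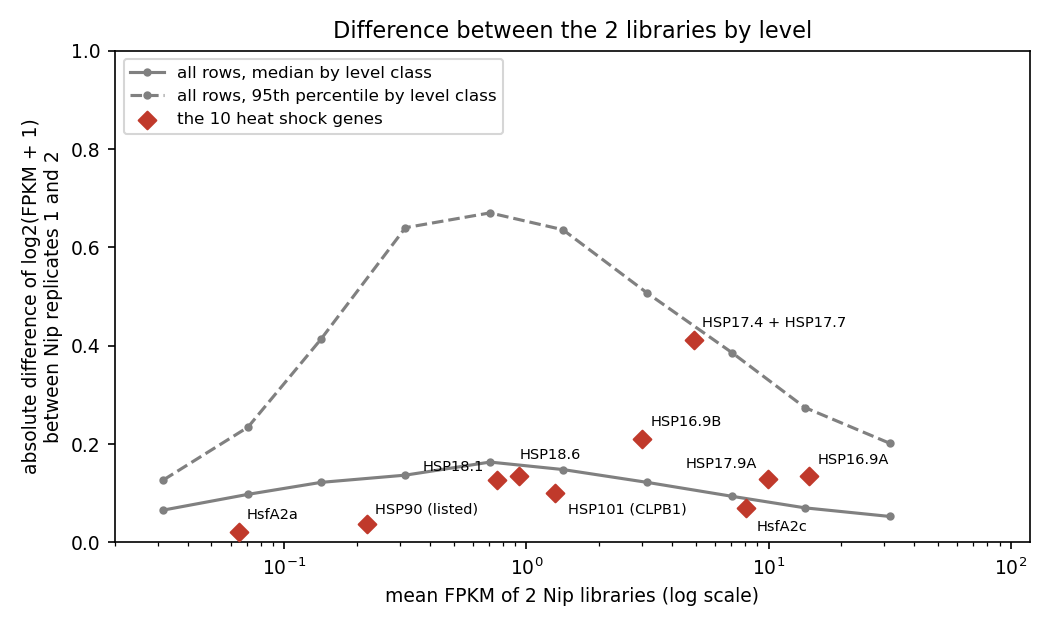
Absolute difference of log2(FPKM + 1) between Nip replicates 1 and 2 against mean FPKM (log axis), with diamonds for the 10 heat shock genes and grey lines for the median (solid) and the 95th percentile (dashed) of all rows in classes of mean level. The HSP17.4 and HSP17.7 row at 0.41 is the highest diamond, and the other 9 lie at or below 0.21.

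As a check of tissue, OsMADS1, OsMADS3, OsMADS13 and OsMADS16, which specify floral organs, had means of 89.9 to 1670 FPKM. OsRDR2 (LOC_Os04g39160), the gene altered in the mutant by its name, was at 13.8 and 12.8 FPKM. The genes of green tissue CAB2R, CAB1R and RBCS had means of 58.2 to 331.8 FPKM, so both kinds of marker were well above 1 FPKM. Names of these 8 check genes rest on prior knowledge of their IDs. In bulk tissue, fewer cells of a type and less RNA per cell cannot be told apart, for the heat shock genes as for these.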

How the data were processed

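RNA-seq of poly(A)-selected RNA was made from 2 Nip and 2 osrdr2-3 young panicle samples, per the labels. The authors aligned reads with TopHat, per the submitters' processing notes. No source used here names the estimator, genome build or annotation. The deposited table gives FPKM per gene for pairs of libraries, per the file headers, and no counts, so absolute depth is unknown. The commonest ratio among 3905 low rows (561 of them within 0.005 on the log2 scale) puts replicate 1 at about 1.07 times the depth of replicate 2, if these rows hold equal fragments. Library ck1 was taken as Nip replicate 1 and ck2 as Nip replicate 2, with ck meaning control. The other 4 library names, ck3 among them, were not used, because they match no single labelled sample. The planned limma test between genotypes was therefore not run.

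Locus IDs were paired with RefSeq by the most frequent local shift of loci within 150000 bp (15 to 38 loci for the 10 genes, against at most 7 for the next shift), with at least 40% overlap of the shorter gene. The loci at the chosen shift were 31.25% to 73.1% of the loci within that distance for the 10 genes. The search for the shift was tested on RefSeq genes moved by known shifts. That test checks neither the names given nor differences between real annotations. A count of 1 FPKM means at least 1 FPKM in both libraries. The 10 genes and the lists were chosen with earlier results of these data known. Named genes are the 10, OsRDR2 and the 2 most abundant named rows and those at 0 of each described list. Others (the remaining HsfA2 genes, the chromosome 1 run, neighbouring loci and listed IDs without a matching name) were chosen after their values were seen. Python 3.11.15, pandas 2.3.3 and NumPy 2.4.6 were used.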

Additional observations from a re-analysis of the deposited data

How the results depend on the processing

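Of 58 alternative settings, all but 4 left the value within 1 SD or the count within 1.5 times. A minimum of 5 FPKM in place of 1 FPKM moved 4 counts: the 10 genes from 6 to 3, heat shock factor rows from 18 to 10, small heat shock rows from 9 to 5 and ClpB rows from 3 to 1. With either replicate left out, the count of the 10 genes was 6 to 7, that of small heat shock rows 9 to 11, and the HSF, HSP90 and ClpB counts stayed at 18, 2 and 3. The mean of each gene could not move by more than 1 SD when a library was left out, by construction, and median-ratio scaling used size factors close to 1, so neither tests stability. The median difference between the libraries over the genes with a mean of at least 1 FPKM was 0.015 on the log2 scale, and it was -0.054 with no filter on the mean. No paired analysis was possible because 1 group was used. The test between genotypes, its block, trend and pseudocount settings were not run. The values of HsfA2a and LOC_Os04g01740, both with the status NOTEST, can rest on few fragments, which cannot be counted from FPKM.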

Other observations

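HSP16.9C (LOC_Os01g04360) had values of 0.716 and 0.0761 FPKM in Nip replicates 1 and 2, both under 1 FPKM, where few fragments can set a value. In the lists of HSP70 chaperones and of other heat-response genes, only BiP and APX2 names were looked for. BiP1 (LOC_Os02g02410), the HSP70 of the endoplasmic reticulum, was at 349.5 and 351.9 FPKM. APX2 (LOC_Os07g49400), an ascorbate peroxidase that removes hydrogen peroxide, was at 103.0 and 101.9 FPKM. Both were above all 10 heat shock genes in each library.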
